A study of Homo sapiens with 3 samples.

Results

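The genes described here are those of the NF-kB pathway with its cytokines, chemokines, cytokine receptors and SOCS feedback genes. They were chosen by symbol from a fixed list, with the chemokine IL8 looked for under both of its symbols and found as CXCL8. All 43 were found among the 20344 genes of the files. The study measured messenger RNA in A375, a human melanoma line with mutant BRAF, and in A375-VR. The labels do not spell out VR, and the series title concerns resistance to the BRAF inhibitor vemurafenib, the beta-adrenergic blocker propranolol, the kinase CDK11 and the cell cycle. Of 3 samples, 2 had a file that was analysed here, and each is a single library.

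The A375-VR library is titled A375-VR, Prop, and the A375 library is titled A375, Prop. The extraction protocol, which is the same for every sample, speaks only of A375-VR cells, given propranolol (20 µM) or its vehicle DMSO over 24 h. For the other library, both the title and the label for the line say A375. Cell line, treatment, culture and library preparation can therefore each lie behind a difference between the libraries, and they cannot be told apart. The third sample, titled A375-VR, DMSO, is not analysed here, so neither library is by its title an untreated control. Each group has 1 library and so no replicates, which means that no condition could be tested and that differences below are between libraries, called A375-VR and A375.

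NF-kB is a family of paired transcription factors that inhibitors of the IkB type hold in the cytoplasm. Signals from receptors of the tumour necrosis factor and interleukin-1 families free them through the IKK kinase complex, and they then switch on cytokines, chemokines, adhesion molecules and their own inhibitors. The cytokines of the interleukin-6 family act through the shared receptor chain IL6ST and STAT proteins, and SOCS proteins shut this signal off. The chemokine CXCL1 is known as an autocrine growth factor of melanoma cells and was first found in melanoma cultures.

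Because NF-kB acts through short sites in promoters, the bases just before the RefSeq gene starts were searched for its known sites. RefSeq promoters on GRCh38.p14 were matched for 34 of the 43 genes, and not for CSF1, LIF, CCL2, CCL5, RELB, NFKBIE, IER3, TNFRSF12A and SOCS2. For each matched gene only the first listed promoter was used, while the background counts every listed promoter. In the 250 bases before the start, the kappaB consensus decamer was found on either strand in 14 of the 34 (41.2%), against 9.96% of 35116 promoters of the same length. The shorter form GGAANTTCC, which overlaps the decamer in most of these promoters, was found in 10 of the 34 (29.4%), against 0.83% of all promoters. The AP-1 motif TGANTCA was found in 3 of the 34 (8.82%), against 6.57%. Members of this list are well studied as NF-kB targets, so the matches describe the list and are not a result of these libraries. The sequences shown are first the neighbouring chemokines CXCL1, CXCL2 and CXCL3, which hold the same site. CXCL8, NFKBIA and ICAM1 follow as classical targets. PTX3 is shown as the gene furthest below 0 and IL24 as the gene furthest above 0 in difference of log2(FPKM + 1). All sequences are written 5′ to 3′ on the strand of the gene and end at the base before the start. Capitals mark matches to the decamer or to GGAANTTCC.
CXCL1, chr4:73869273-73869392, plus strand: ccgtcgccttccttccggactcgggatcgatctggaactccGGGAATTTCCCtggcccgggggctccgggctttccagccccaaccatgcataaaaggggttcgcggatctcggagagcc
CXCL2, chr4:74099196-74099315, minus strand: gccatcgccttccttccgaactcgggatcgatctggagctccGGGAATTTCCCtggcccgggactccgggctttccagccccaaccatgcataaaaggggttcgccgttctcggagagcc
CXCL3, chr4:74038690-74038809, minus strand: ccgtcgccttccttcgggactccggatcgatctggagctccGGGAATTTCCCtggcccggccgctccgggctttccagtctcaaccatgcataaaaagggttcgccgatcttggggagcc
CXCL8, chr4:73740409-73740568, plus strand: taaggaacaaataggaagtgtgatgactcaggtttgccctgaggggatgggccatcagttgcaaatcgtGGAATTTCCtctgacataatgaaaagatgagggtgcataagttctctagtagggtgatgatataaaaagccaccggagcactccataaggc
NFKBIA, chr14:35404750-35404869, minus strand: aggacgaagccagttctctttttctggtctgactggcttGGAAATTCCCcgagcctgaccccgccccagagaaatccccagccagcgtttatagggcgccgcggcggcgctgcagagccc
ICAM1, chr19:10270900-10271119, plus strand: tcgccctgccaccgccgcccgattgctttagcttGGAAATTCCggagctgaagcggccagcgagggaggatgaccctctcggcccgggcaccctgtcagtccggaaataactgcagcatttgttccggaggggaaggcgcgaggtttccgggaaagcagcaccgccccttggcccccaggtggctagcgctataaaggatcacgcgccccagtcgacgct
PTX3, chr3:157436730-157436849, plus strand: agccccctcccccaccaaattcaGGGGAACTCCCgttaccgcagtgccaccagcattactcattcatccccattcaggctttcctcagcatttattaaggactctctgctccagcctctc
IL24, chr1:206897193-206897442, plus strand: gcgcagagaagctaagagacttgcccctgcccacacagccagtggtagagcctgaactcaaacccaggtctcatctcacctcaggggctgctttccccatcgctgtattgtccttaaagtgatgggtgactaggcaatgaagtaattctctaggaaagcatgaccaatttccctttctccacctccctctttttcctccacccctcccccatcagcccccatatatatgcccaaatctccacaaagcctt
In CXCL1, CXCL2 and CXCL3 the site begins 79, 78 and 79 bases before the start and matches the decamer at 2 overlapping positions. CXCL8 matches only the shorter form, 91 bases before the start, and holds the AP-1 motif 137 bases before it, not in capitals. These letters are not in the window shown for IL24, which says nothing about the factor.

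Levels are FPKM, which are scaled to gene length and to the library total, so they can be compared between genes. The totals worked out from the values were 16438482 for the A375-VR library and 17811339 for the A375 library. The filter asked for an FPKM of 1 or more in either library, and 33 of the 43 genes and 10761 genes of the files passed it. Differences are of log2(FPKM + 1), A375-VR minus A375, and one whose size is 1 or more is called 2-fold. The pseudocount of 1 makes the differences of low genes look smaller than they are. A fold is the FPKM in the A375-VR library divided by that in the A375 library, with no pseudocount. Each fold is followed in parentheses by its 95% exact Clopper-Pearson interval from recovered reads, which covers counting error only. Reads given below are the smallest whole numbers that the values allow, so true reads can be more. The median ratio of all genes past the filter was 1.08, so a fold close to that is close to the typical gene.

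Most of the 33 genes had a higher level in A375-VR than in A375, and genes that were lower occurred in every role other than the NF-kB subunits, where RELA turned below 0 with other scalings. A total of 26 had a difference above 0 and 7 below 0 in the A375-VR library, while 60.3% of all genes past the filter were above 0 and 39.7% below. Of the 26, 7 passed the filter through the A375-VR library alone (IL1A, CXCL2, CXCL3, CCL2, PTGS2, IL1RAP and SOCS2), and of the 7 lower ones CSF2 passed it through A375 alone, so these had to differ in that direction. They were 26.9% of the higher and 14.3% of the lower genes of the list. Over all genes past the filter these shares were 8.81% and 3.56%. The counts and the median of the list therefore hold a larger part fixed by the filter than those of all genes. IL24, LIF, CXCL3 and ICAM1 were at least 2-fold higher, which 3.14% of all genes were, and PTX3 was at least 2-fold lower, which 0.613% were. The median difference was 0.36, against 0.10 for all genes. The counting interval of the fold lay above 1 for 20 of the 33 and below 1 for 6, while 43.6% of all genes had intervals above 1 and 26.4% below. Set against the median ratio, 17 lay above and 6 below, with 33.7% and 34.8% of all genes. Of the 33 directions, 31 were the same under every scaling tried. A pseudocount cannot change a direction, and each scaling multiplies every gene of a library by the same factor, so only genes near 0 could turn. CSF1 and RELA turned below 0 after centring on the median ratio, at -0.07 and -0.06, and with the trimmed mean, at -0.07 and -0.06.

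**Figure D1:**
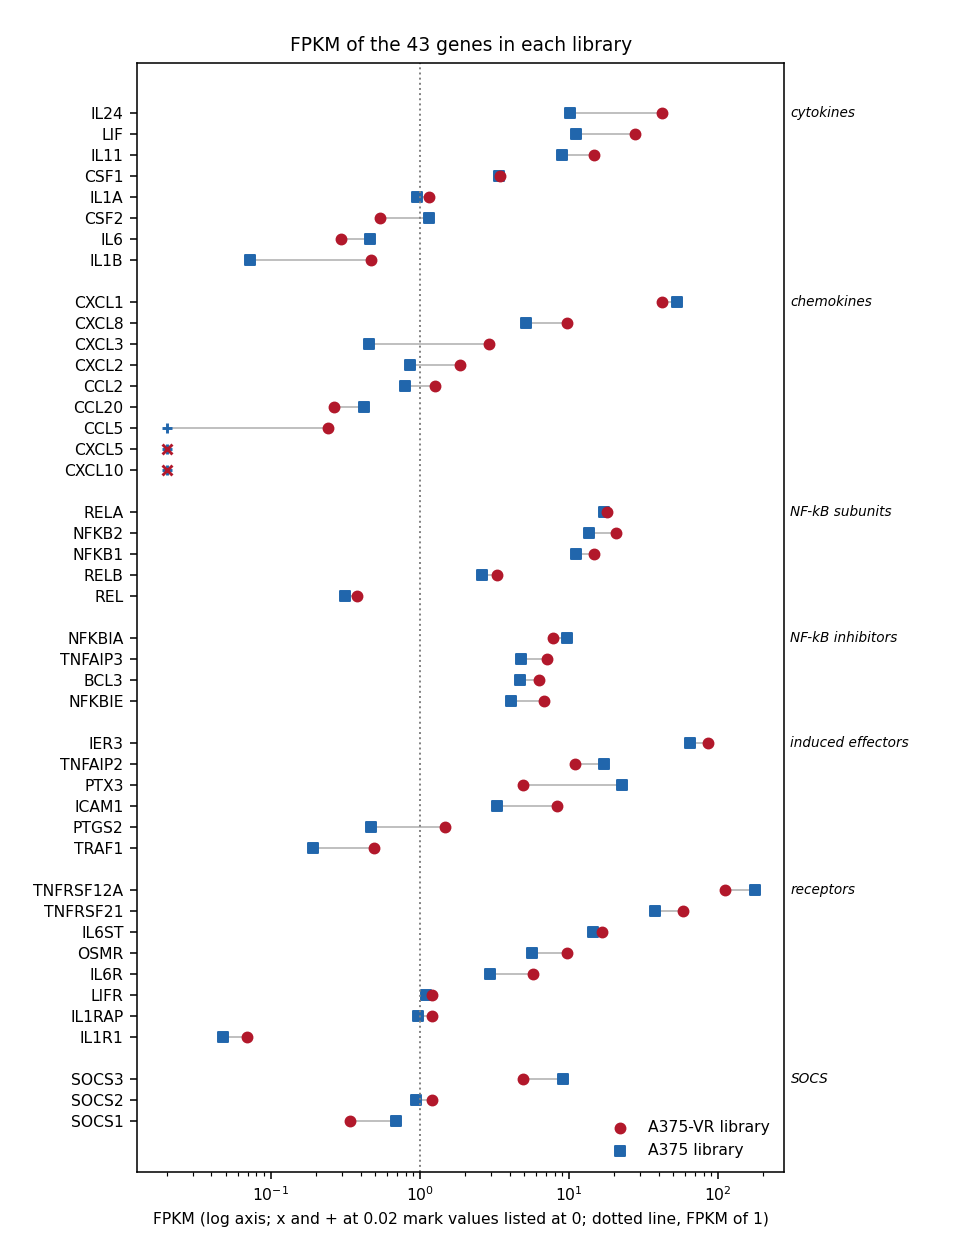
FPKM of each of the 43 genes in the A375-VR library (circles) and the A375 library (squares) on a log axis, by role. TNFRSF12A, IER3, TNFRSF21, CXCL1 and IL24 reach the highest levels, and CXCL5 and CXCL10 are listed at 0 in both libraries.

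Markers of 4 other cell types that could bring cytokines with them were measured. Among 14 leukocyte markers, 7 were at 0 in both libraries, including PTPRC, CD3E, MS4A1, CD68 and SPI1. HLA-DRA, which melanoma cells can make, had 140.3 FPKM in A375-VR and 88.1 in A375. The other 13 summed to 2.57 FPKM in the A375-VR library and 0.627 in the A375 library, and none of them passed the filter. The largest was LYZ, at 0.897 FPKM in the A375-VR library and listed at 0 in the A375 library. The 10 fibroblast markers summed to 7.11 FPKM in the A375-VR library and 5.18 in the A375 library, with LUM the main one. The 8 keratinocyte markers summed to 59.8 FPKM in A375-VR and 48.0 in A375, mostly KRT10, which had 56.0 FPKM in A375-VR and 44.9 in A375, and the 7 endothelial markers to 2.19 FPKM in A375-VR and 0.755 in A375, mainly KDR. Each of these sums was larger in A375-VR, and their part in the differences of the cytokine genes was not tested. Of 12 markers of melanoma, 6 passed the filter. SOX10 had 150 FPKM in the A375-VR library and 65.3 in the A375 library. ERBB3, S100B, GPNMB and CSPG4 were also higher, at folds of 3.58 (3.25 to 3.94), 3.39 (2.11 to 5.61), 2.77 (2.57 to 2.99) and 1.74 (1.67 to 1.82). MITF, the melanocyte factor, was lower, with 3.47 FPKM in A375-VR and 6.47 in A375, a fold of 0.537 (0.476 to 0.605). PMEL, MLANA, TYR, TYRP1, DCT and S100A1 were all under 1 in both. In bulk RNA, fewer cells of a type and less RNA per cell cannot be told apart.

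Among the cytokines, the difference lay with IL24 and with LIF and IL11, both of the interleukin-6 family. The classical inflammatory cytokines were scarcely detected. IL24, a cytokine of the interleukin-10 family that was first found in melanoma cells, had 42.1 FPKM in the A375-VR library and 10.1 in the A375 library, from 1368 reads in A375-VR and 357 in A375. Its fold was 4.15 (3.69 to 4.68), and 0.437% of all genes past the filter had a larger difference in size. A higher level than that of IL24 was found for 10.2% of genes past the filter in the A375-VR library and for 40.4% in the A375 library. The gene lies on chromosome 1 at 207070788 to 207077484, plus strand, of GRCh37. Its exons share 823 bases with FCMR on the opposite strand, which had 1.24 FPKM in A375-VR and 0.526 in A375, and whether strand was used in counting is not given.

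LIF, which keeps stem cells undifferentiated in mouse and signals through LIFR, had 27.5 FPKM in the A375-VR library and 11.1 in the A375 library. Its difference was 1.24, from 1796 reads in A375-VR and 783 in A375, and it lies on chromosome 22 at 30636442 to 30642748. IL11, a cytokine of the same family made by stromal and tumour cells, had 14.7 FPKM in A375-VR and 8.98 in A375, which rested on 644 reads in A375-VR and 427 in A375 and gave a fold of 1.63 (1.44 to 1.85). Of the 8 cytokines, these 3 alone were above 5 FPKM in either library.

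CSF1, the growth factor of macrophages, was at 3.46 FPKM in the A375-VR library and 3.40 in the A375 library, a fold of 1.02 (0.811 to 1.28). IL1A, the alarm cytokine kept inside cells, had 1.15 FPKM in A375-VR and 0.952 in A375 from 10 reads in A375-VR and 9 in A375. CSF2, a growth factor of granulocytes and macrophages, had 0.541 FPKM in A375-VR and 1.14 in A375 from 7 reads in A375-VR and 16 in A375. The intervals of both folds held 1, at 0.440 to 3.35 for IL1A and 0.165 to 1.22 for CSF2, so no difference was detectable at these reads. IL6 did not pass the filter, with 0.294 FPKM in A375-VR and 0.461 in A375, nor did IL1B, the secreted partner of IL1A, with 0.472 FPKM in A375-VR and 0.0725 in A375 from 6 reads in A375-VR and 1 in A375, a fold of 6.50 (0.789 to 299).

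Of the chemokines past the filter, CXCL1 was lower and CXCL8 higher in A375-VR. CXCL2, CXCL3 and CCL2 were also higher, but they passed the filter through the A375-VR library alone, so their direction was fixed by it. Several chemokine genes lie side by side on chromosome 4, and CXCL1, CXCL2 and CXCL3 hold the same promoter site. CXCL1, a neutrophil attractant also called melanoma growth stimulating activity, was the most abundant, with 41.7 FPKM in the A375-VR library and 52.9 in the A375 library. Its fold was 0.788 (0.676 to 0.918). CXCL3, which acts on the same receptor, had 2.91 FPKM in the A375-VR library and 0.455 in the A375 library. This fold of 6.38 (3.85 to 11.2), from 106 reads in A375-VR and 18 in A375, was the largest among the 33 genes past the filter. CXCL2, the third of this group, had 1.87 FPKM in A375-VR and 0.861 in A375 from 46 reads in A375-VR and 23 in A375, a fold of 2.17 (1.29 to 3.75).

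These paralogs are close copies, with 93.5% identity between the longest reading frames of CXCL1 and CXCL2, 90.7% between CXCL1 and CXCL3 and 94.4% between CXCL2 and CXCL3, over 324 bases each. A counting tool can split reads between them, so the single values are uncertain. Summed over the 3 genes, the level was 46.5 FPKM in the A375-VR library and 54.2 in the A375 library, a ratio of 0.857. CXCL1 made up 89.7% of this sum in A375-VR and 97.6% in A375. FPKM is scaled to gene length, and the annotated lengths are 1362 bases for CXCL1, 1398 for CXCL2 and 2219 for CXCL3. The sum, its ratio and these shares therefore still depend on how reads were split between the genes.

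CXCL8, the main attractant of neutrophils, had 9.68 FPKM in the A375-VR library and 5.14 in the A375 library. Its fold was 1.89 (1.47 to 2.42), from 181 reads in A375-VR and 104 in A375. It lies on chromosome 4 at 74606236 to 74609433 of GRCh37, upstream of CXCL1 at 74735110 to 74737025, CXCL3 at 74902306 to 74904524 and CXCL2 at 74962757 to 74964913. CXCL5, which lies among them at 74861359 to 74864394, was at 0 in both libraries. CCL2, which attracts monocytes, had 1.26 FPKM in A375-VR and 0.792 in A375, and the interval of its fold, 1.59 (0.958 to 2.66), held 1. The remaining chemokines were below the filter: CCL20 had 0.267 FPKM in the A375-VR library and 0.423 in the A375 library, CCL5 had 0.241 in A375-VR and was listed at 0 in A375, and CXCL10, an interferon-induced chemokine, was listed at 0 in both. Receptors for these ligands, named here after their values were seen, were low too. CXCR1 was at 0 in both libraries and CXCR2 had 0.0753 FPKM in A375-VR and was listed at 0 in A375.

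The 4 NF-kB subunits past the filter had differences above 0, of which that of RELA turned to -0.06 after centring and with the trimmed mean, and none was 2-fold apart. NFKB2, the precursor subunit of the alternative pathway, had 20.8 FPKM in the A375-VR library and 13.7 in the A375 library. Its fold of 1.52 (1.41 to 1.65) was the largest of the subunits. NFKB1, the precursor subunit of the classical pathway and itself an NF-kB target, had 14.6 FPKM in A375-VR and 11.1 in A375, a fold of 1.31 (1.22 to 1.42). RELA, the main activating subunit, was close to level, with 17.9 FPKM in the A375-VR library and 17.2 in the A375 library. Its fold of 1.04 (0.968 to 1.11) lay below the median ratio of all genes, but the interval held that ratio. RELB, the partner of NFKB2, had 3.29 FPKM in A375-VR and 2.61 in A375, and the interval of its fold held the median ratio. REL did not pass the filter, with 0.379 FPKM in A375-VR and 0.315 in A375, although its promoter holds the kappaB decamer 47 bases before its start. Summed over the 5 subunits the level was 56.9 FPKM in the A375-VR library and 44.9 in the A375 library.

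Among the inhibitors, NFKBIA differed in direction from the rest. NFKBIA, which encodes the main IkB and is induced by NF-kB within minutes, had 7.82 FPKM in the A375-VR library and 9.68 in the A375 library. Its fold was 0.808 (0.694 to 0.939), from 305 reads in A375-VR and 409 in A375. NFKBIE, another IkB, had 6.74 FPKM in A375-VR and 4.09 in A375, a fold of 1.65 (1.37 to 1.99). TNFAIP3, a ubiquitin-editing enzyme that ends the signal, had 7.07 FPKM in A375-VR and 4.77 in A375, a fold of 1.48 (1.31 to 1.68). BCL3, an atypical IkB that works in the nucleus, had 6.30 FPKM in A375-VR and 4.66 in A375, a fold of 1.35 (1.15 to 1.59). The differences of NFKBIA and NFKBIE lay on opposite sides of 0. They did so in all settings, which adds little, because a pseudocount cannot change a sign and each scaling shifts all genes alike.

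The effectors induced by NF-kB spread the widest. ICAM1, an adhesion molecule bound by leukocytes, had 8.29 FPKM in the A375-VR library and 3.27 in the A375 library. Its fold was 2.53 (2.16 to 2.98), from 505 reads in A375-VR and 216 in A375, and it lies on chromosome 19 at 10381769 to 10397291 of GRCh37. PTGS2, the inducible cyclooxygenase, had 1.48 FPKM in A375-VR and 0.469 in A375, a fold of 3.15 (2.22 to 4.55). With the pseudocount of 1 its difference was 0.75, so it was not counted as 2-fold apart, and with 0.1 it was 1.47. IER3, an early response gene that restrains cell death, was the most abundant effector, with 85.7 FPKM in A375-VR and 64.6 in A375 and a fold of 1.33 (1.24 to 1.42). TRAF1, a signalling adaptor, stayed below the filter, at 0.491 FPKM in A375-VR and 0.192 in A375.

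PTX3, a secreted pattern recognition protein, went the other way, and with the pseudocount of 1 it had the largest difference in size of the list. It had 4.89 FPKM in the A375-VR library and 22.5 in the A375 library, a difference of -1.99 and a fold with an interval of 0.150 to 0.309, from 39 reads in A375-VR and 194 in A375, and 0.381% of all genes past the filter differed more. Its locus on chromosome 3, at 157154639 to 157161422, lies within VEPH1 on the opposite strand, which had 0.808 FPKM in A375-VR and 0.694 in A375. TNFAIP2, induced by tumour necrosis factor and involved in membrane nanotubes, was also lower, with 11.0 FPKM in the A375-VR library and 17.2 in the A375 library. Its fold was 0.640 (0.589 to 0.695). PTX3 holds the kappaB decamer in the window shown above and TNFAIP2 does not, while both ICAM1 and PTX3 hold a match and differed in opposite directions.

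**Figure D2:**
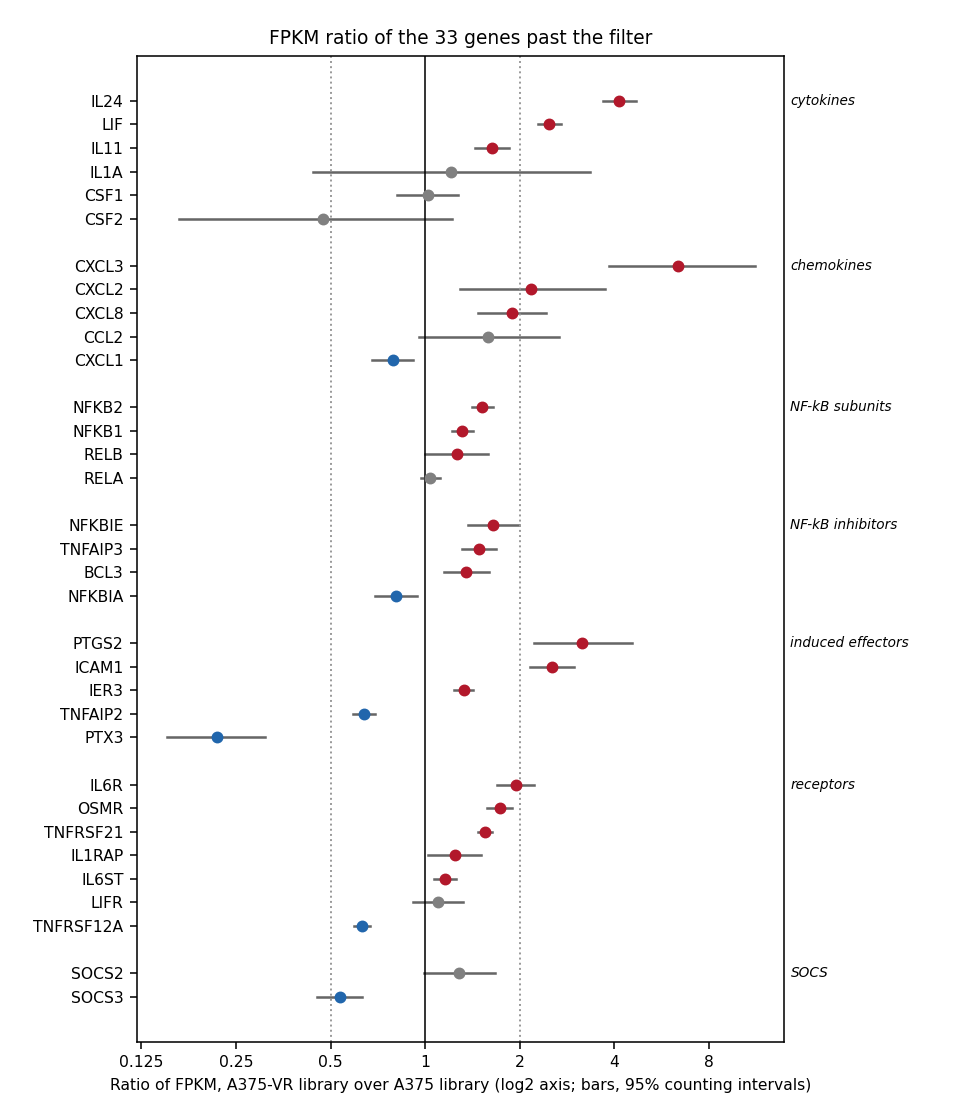
Ratio of FPKM, A375-VR library over A375 library, for the 33 genes past the filter, on a log2 axis, with bars for 95% counting intervals; red points have intervals above 1, blue below 1 and grey hold 1. Of the 33, 20 lie above 1 and 6 below, with CXCL3 at 6.38 and PTX3 at the far left.

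Of the 7 receptor genes past the filter 6 were above 0, against 60.3% of all genes, and none was 2-fold apart. The intervals of 3 of the 6, IL6ST, IL1RAP and LIFR, held the median ratio of all genes. IL6R, which binds interleukin-6, had 5.70 FPKM in the A375-VR library and 2.94 in the A375 library, a fold of 1.94 (1.69 to 2.22). OSMR, the receptor for oncostatin M, had 9.70 FPKM in A375-VR and 5.63 in A375, a fold of 1.72 (1.57 to 1.90). It shares 229 exonic bases with RICTOR on the opposite strand, which had 3.76 FPKM in A375-VR and 3.41 in A375. IL6ST, the chain that all of these receptors need, had 16.7 FPKM in A375-VR and 14.5 in A375. Its fold of 1.16 (1.07 to 1.25) lay above 1 and held the median ratio of all genes. LIFR, the receptor of LIF, was nearly level, at 1.20 FPKM in A375-VR and 1.10 in A375, a fold of 1.10 (0.912 to 1.32). IL11RA, the receptor of IL11, not among the 43 genes and named after its values were seen, had 1.28 FPKM in A375-VR and 0.933 in A375.

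The receptors of interleukin-1 were scarce. IL1R1 had 0.0687 FPKM in the A375-VR library and 0.0476 in the A375 library, from 8 reads in A375-VR and 6 in A375. IL1RAP, its accessory chain, had 1.20 FPKM in A375-VR and 0.967 in A375, a fold of 1.24 (1.02 to 1.51) that held the median ratio.

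Of the receptors from the tumour necrosis factor family, TNFRSF12A was lower and TNFRSF21 higher, both among the most abundant genes of the list. TNFRSF12A, the receptor of TWEAK, had 110 FPKM in the A375-VR library and 175 in the A375 library. Of genes past the filter, 3.14% had a higher level than TNFRSF12A in A375-VR and 1.91% in A375. Its fold was 0.630 (0.593 to 0.670). TNFRSF21, a death receptor, had 58.5 FPKM in the A375-VR library and 37.8 in the A375 library, a fold of 1.55 (1.47 to 1.63).

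The SOCS genes encode feedback inhibitors of cytokine receptors, and 2 passed the filter. SOCS3 was lower in A375-VR. SOCS2 was higher, but it passed the filter through the A375-VR library alone, so its direction was fixed by the filter. SOCS3, induced by STAT3 and an inhibitor of IL6ST, had 4.90 FPKM in the A375-VR library and 9.14 in the A375 library. Its fold was 0.536 (0.454 to 0.631), from 220 reads in A375-VR and 445 in A375. SOCS2, a feedback inhibitor of growth hormone signalling, had 1.20 FPKM in A375-VR and 0.936 in A375, a fold of 1.28 (0.993 to 1.67). SOCS1 did not pass the filter, with 0.339 FPKM in A375-VR and 0.688 in A375 from 5 reads in A375-VR and 11 in A375.

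Other genes of these pathways were taken from 5 further lists, and the counts are read against all genes, of which 3.14% were 2-fold higher, 0.613% were 2-fold lower and 60.3% had a difference above 0. As above, 2-fold apart refers to the difference of log2(FPKM + 1). A gene can therefore have a fold above 2, which has no pseudocount, and not be counted as 2-fold apart. Of 35 genes of the IKK complex and its adaptors, 33 passed the filter and none was 2-fold apart, with a median difference of 0.14. TRADD, the adaptor of tumour necrosis factor receptors, had 7.18 FPKM in the A375-VR library and 3.96 in the A375 library, a fold of 1.81 (1.50 to 2.19). CYLD, a deubiquitinase that limits NF-kB, had a fold of 1.88 (1.64 to 2.15), and IRAK4, a kinase of the interleukin-1 receptor, of 1.80 (1.50 to 2.16). TOLLIP, an inhibitor of IRAK kinases, had a fold of 1.56 (1.41 to 1.72). MAP3K14, the kinase that starts the alternative pathway and the processing of NFKB2, is named after its values were seen. It was lower, with 3.04 FPKM in A375-VR and 4.90 in A375, a fold of 0.620 (0.535 to 0.718).

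A separate list held 31 further NF-kB target genes. Of 17 past the filter, 8 were above 0 and 9 below, with a median of -0.06, against 0.10 for all genes. With the filter at FPKM 5 the order turned, and the 7 genes left had a median of 0.30, against 0.05 for all genes. GADD45B, a stress response gene, was the only one 2-fold apart, with 4.30 FPKM in the A375-VR library and 10.1 in the A375 library. BMP2, a bone morphogenetic protein, had 3.24 FPKM in A375-VR and 1.34 in A375, a fold of 2.42 (1.87 to 3.16). TNC, an extracellular matrix protein, had a fold of 1.46 (1.32 to 1.61) and NINJ1, an adhesion protein, of 1.49 (1.29 to 1.73). TNF itself, CCL3, CCL4, CXCL6, CXCL11, VCAM1 and SELE were at 0 in both libraries.

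In the list of tumour necrosis factor, interleukin-1 and Toll-like receptors, 18 of 31 genes passed the filter, 15 were above 0 and the median was 0.40. TNFRSF19, an orphan receptor of the family, was the only one 2-fold apart, with 8.90 FPKM in the A375-VR library and 1.49 in the A375 library, a fold of 5.96 (4.96 to 7.21). TNFRSF11A, the receptor RANK, had 1.20 FPKM in A375-VR and 0.324 in A375, a fold of 3.71 (2.71 to 5.15). TLR4, the receptor of bacterial lipopolysaccharide, had 9.15 FPKM in A375-VR and 5.02 in A375, a fold of 1.82 (1.70 to 1.96). NGFR, a neural crest marker, was lower, with 12.4 FPKM in A375-VR and 21.1 in A375.

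The JAK-STAT list, with 20 of 24 genes past the filter, had 17 above 0, none 2-fold apart and a median of 0.20. After centring on the median ratio 13 of the 20 were above 0, against 50% of all genes. STAT6 had 19.2 FPKM in the A375-VR library and 12.2 in the A375 library, a fold of 1.57 (1.47 to 1.68). STAT5B had a fold of 1.56 (1.27 to 1.92) and SOCS6, a further SOCS gene, of 1.51 (1.29 to 1.78). STAT3, the factor downstream of IL6ST, had 11.7 FPKM in A375-VR and 8.01 in A375, a fold of 1.46 (1.36 to 1.58).

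Of 41 other cytokine receptor genes, 17 passed the filter and 16 of these were above 0, with a median of 0.45 and none 2-fold apart. IL13RA2, the decoy receptor of interleukin-13, had the highest level of the genes of these lists in the A375-VR library, with 332 FPKM there and 170 in the A375 library, a fold of 1.95 (1.88 to 2.02). IL13RA1, the signalling receptor, had a fold of 2.13 (1.80 to 2.53) and EPOR, the erythropoietin receptor, of 2.16 (1.77 to 2.65). IL15RA, which presents interleukin-15, had a fold of 2.59 (1.76 to 3.90). IL7R, the receptor of interleukin-7, was the only one below 0, with 10.4 FPKM in A375-VR and 16.0 in A375. IL7R and the receptor chains of IL24 are named after their values were seen. The chains were low. IL20RA was at 0 in both libraries, IL20RB had 0.689 FPKM in A375-VR and 0.522 in A375, and IL22RA1 had 1.22 FPKM in A375-VR and 0.602 in A375, from 28 reads in A375-VR and 15 in A375.

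**Figure D3:**
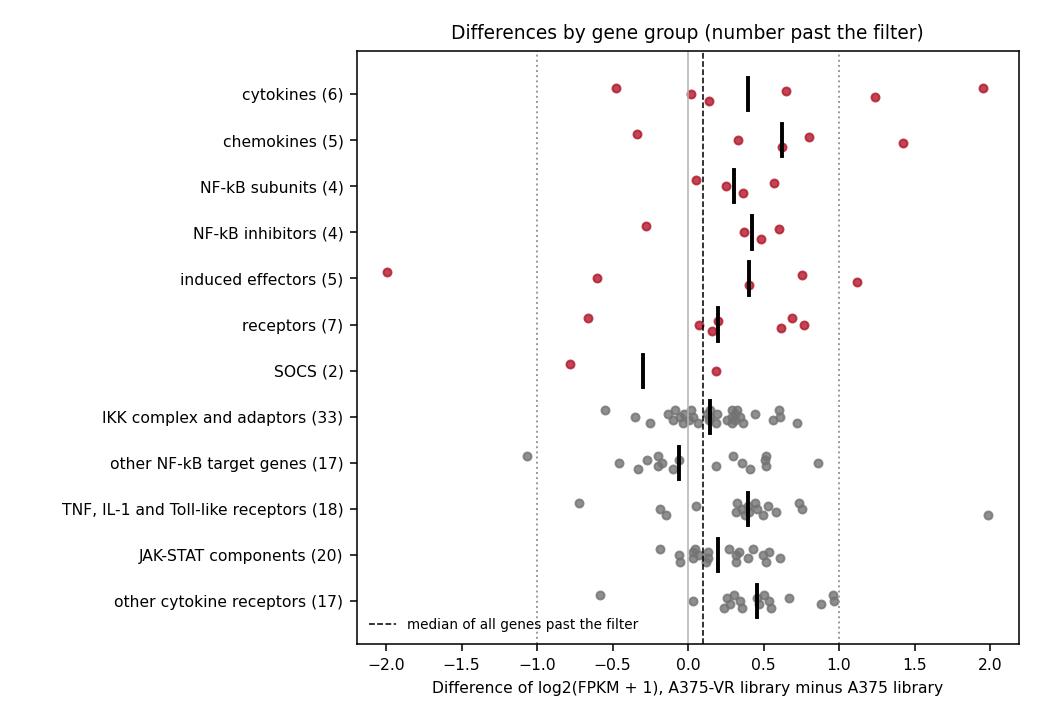
Difference of log2(FPKM + 1), A375-VR minus A375, of each gene past the filter, with the 43 genes by role in red and the 5 further lists in grey; black bars are medians and the dashed line is the median of all genes. The further NF-kB targets have a median of -0.06, below the dashed line at 0.10, an order that turned with the filter at FPKM 5 (0.30 for the 7 genes left, against 0.05 for all genes).

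**Figure D4:**
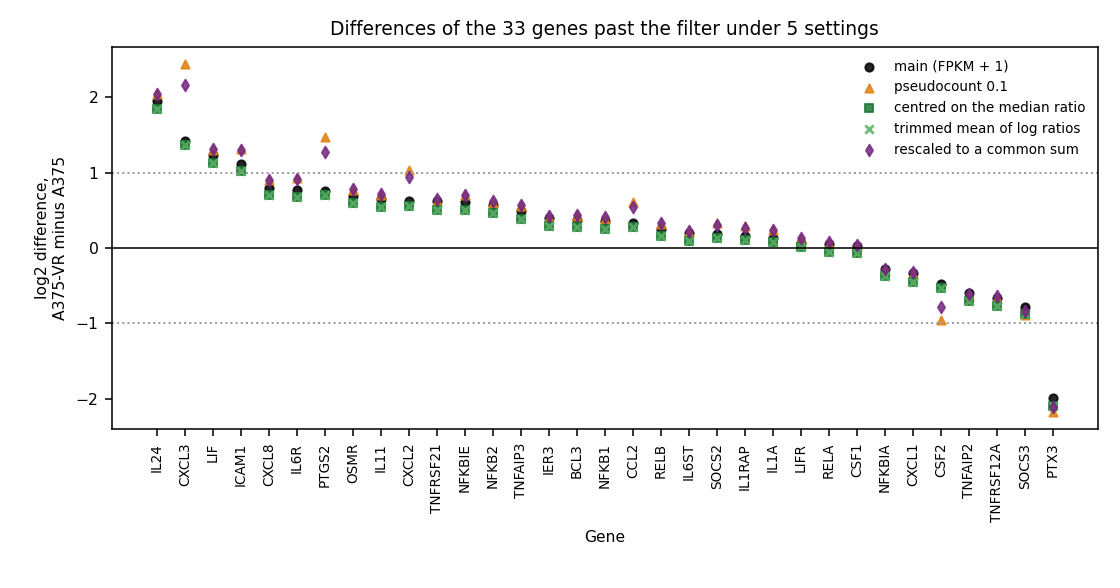
Difference on the log2 scale of the 33 genes past the filter under the pseudocounts of 1 and 0.1 and 3 other scalings, ordered by the main value. Only CSF1 and RELA have points on both sides of 0, and CXCL3, PTGS2 and CSF2, which are low genes, move the most with the pseudocount.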

How the data were processed

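Messenger RNA was measured in 2 libraries, titled A375-VR, Prop and A375, Prop. The deposited values are FPKM, made by the authors, with 1 value per gene and library. The series design text names a stranded TruSeq mRNA kit, paired reads of 150 bp, and alignment by TopHat 1.3.3 on GRCh37. How reads were counted, on which annotation and whether by strand is not given in the sources used here. No count model was run and no p-value is given.

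Reads were recovered from the FPKM with pandas 2.3.3 and scipy 1.17.1. The ratio of the library totals is that of the 274 genes with equal reads. Their common factor was the one, of 12 tried, under which most gene lengths equal GENCODE 44 exon lengths on GRCh37 (15.4% of 13581 genes, against 10.7% for the next). The reads are the smallest whole numbers that give whole lengths, so intervals can be too wide. They may be reads or fragments. All steps were tested on simulated data.

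The members, lists and tests were chosen with earlier results of these data known. Every gene of the list past the filter is given with its values, and up to 4 genes of each further list with the largest differences. Alternatives were a pseudocount of 0.1, no filter, a filter at FPKM 5, centring on the median ratio, a trimmed mean (30% off each side) and a common sum. Reading frames were aligned with Biopython 1.88.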

Additional observations from a re-analysis of the deposited data

How the results depend on the processing

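No paired analysis was possible because there is 1 library per group. Among the 43 genes, the 2-fold counts were 3 to 6 higher and 1 lower in all settings, and the median stayed between 0.25 and 0.44. With a pseudocount of 0.1, CXCL2 and PTGS2 also passed 2-fold. Over all genes, 338 were 2-fold higher and 66 lower. These became 689 and 140 with the pseudocount of 0.1 and 624 and 104 with a common sum, where the pseudocount is small beside the values. Lower genes were 101 after centring and 101 with the trimmed mean, and higher ones 276 in both. Of genes 2-fold apart, 83.7% were higher with the main settings, 73.2% after centring and 73.2% with the trimmed mean. With the pseudocount of 0.1 and with the common sum, further NF-kB targets had 1 gene 2-fold higher in place of 0. Tumour necrosis factor and Toll-like receptors had 2 in place of 1, and other cytokine receptors 3 in place of 0. Of all genes past the filter, 6.40% were 2-fold higher with the pseudocount of 0.1 and 5.80% with the common sum, in place of 3.14%. The median of further NF-kB targets was 0.30 with the filter at FPKM 5 (7 genes) and that of other cytokine receptors 0.15 with no filter, which adds genes near 0. The cause of other changes was not tested. Genes under about 50 reads, such as IL1A, CSF2, CXCL2 and CCL2, had wide counting intervals.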

Other observations

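For the genes 2-fold apart, the nearest listed genes on either side on GRCh37 were looked up after their values were seen. Around IL24, the related cytokine genes IL20, 28.2 kb away, and IL19, 54.5 kb away, were at 0 in both libraries. FCMR, which overlaps IL24, had a fold of 2.36 (1.11 to 5.35), and PIGR, 24.4 kb away, was at 0 in A375-VR and had 0.0257 FPKM in A375. Beyond LIF, its relative OSM, 16.1 kb away, had 0.0576 FPKM in the A375-VR library and was at 0 in the A375 library. CASTOR1, on the same side at 38.4 kb, was at 0 in A375-VR and had 0.0818 FPKM in A375. On the other side HORMAD2, 63.4 kb away, was at 0 in both libraries. Further out on that side, MTMR3, at 209.6 kb, had 0.393 FPKM in A375-VR and 0.181 in A375, a fold of 2.17 (1.40 to 3.42). MTMR3 did not pass the filter. Beside ICAM1, ICAM5, 3.3 kb away, had 1.64 FPKM in the A375-VR library and 0.949 in the A375 library, a fold of 1.72 (0.983 to 3.08), and ICAM4 was at 0 in both. S1PR2, a sphingosine phosphate receptor 39.8 kb from ICAM1, had 2.59 FPKM in A375-VR and 1.09 in A375, a fold of 2.37 (1.77 to 3.18), while MRPL4, 11.0 kb away, had a fold of 0.833 (0.769 to 0.902). Around PTX3, SHOX2 had a fold of 1.02 (0.861 to 1.21) and CCNL1 of 0.901 (0.844 to 0.963). Around CXCL3, PPBP, a platelet chemokine gene 48.4 kb away, was at 0 in both libraries, and the metabolic gene MTHFD2L, 75.4 kb away, had a fold of 1.40 (1.18 to 1.66).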
